A study of Homo sapiens with 14 samples.

Results

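SKOV3 is an established human ovarian adenocarcinoma cell line. Its m6A levels and the read coverage of its transcripts were compared with those of 5 other cancer cell lines, using the 2 SKOV3 libraries among the 14 libraries of the series. The members were chosen by label alone: both libraries are named as SKOV3 cells given DMSO for 24 h. The comparison set was 10 DMSO libraries, 2 from each of A549 (lung adenocarcinoma), OE21 (oesophageal squamous carcinoma) and the ovarian lines CAOV3, COV644 and EFO21, all given DMSO for 24 h. The other 2 libraries, CAOV3 cells with the compound STM3675, were not used. Polyadenylated RNA was measured by GLORI, a chemical sequencing method in which glyoxal and nitrite turn unmethylated adenosine into a base read as G while m6A is still read as A. The level of a site is therefore the share of its reads that are A. Each line is a single cell line and stands for no tissue, and the labels do not say whether the 2 libraries of a line came from separate cultures, so the tests measure the spread between libraries, which may be technical.

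m6A is laid down on nascent mRNA by a complex of the catalytic subunit METTL3 and its partner METTL14, mostly at the sequence DRACH, in which D is A, G or U, R is A or G, and H is A, C or U. It is enriched near stop codons and in long last exons, and proteins of the YTH family bind it and shorten the life of many of the transcripts that carry it. SKOV3 is widely used as a model of ERBB2 (HER2) amplification and has a spindle-shaped, partly mesenchymal form in culture. These are textbook facts about the line and were not measured here.

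The deposited table lists 407343 adenosines. Of these, 68873 (16.9%) had at least 20 reads in all 12 DMSO libraries and are called covered here. They comprise 38621 DRACH and 30252 non-DRACH sites. Library totals at listed sites were 22667614 and 17964055 reads in SKOV3, within the 14047302 to 25492907 reads of the others, and the median covered site had 88 and 68 reads. Adenosines outside DRACH are mostly unmethylated, so their level is a guide to incomplete conversion. Its median was 11.1% and 14.3% in SKOV3, against 10.5% and 10.5% in A549, 10.9% and 11.1% in CAOV3 and 10.7% and 13.6% in EFO21. COV644 (4.76% and 3.77%) and OE21 (4.38% and 4.17%) were lower. The second SKOV3 library had the highest background of the 12. Several of the site results below are therefore also given against A549, CAOV3 and EFO21 alone, the 3 lines of similar background.

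The mean level over covered DRACH sites was 43.1% and 43.4% in SKOV3, which is 43.2% ± 0.165 (SD, n = 2). Among the others it ran from 40.1% in an OE21 library to 49.0% in a CAOV3 library, with a mean of 5 lines of 44.2% ± 2.89 (SD of lines, n = 5). SKOV3 lay inside that range. The difference of -0.975 percentage points gave p = 0.530 in a two-sided exact permutation of libraries over 66 splits, and p = 0.5 in an exact permutation of lines, for which 0.167 is the smallest value possible. Against the 3 lines of similar background the difference was -2.12 points. By line it was -5.15 points against CAOV3, -0.886 against EFO21 and -0.337 against A549, so the 3-line value rests mostly on CAOV3. With each library's background subtracted, the difference from the mean of 5 lines was -3.79 points (p = 0.106, exact permutation of libraries). No difference of the mean level was thus detected at this number of lines.

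**Figure D1:**
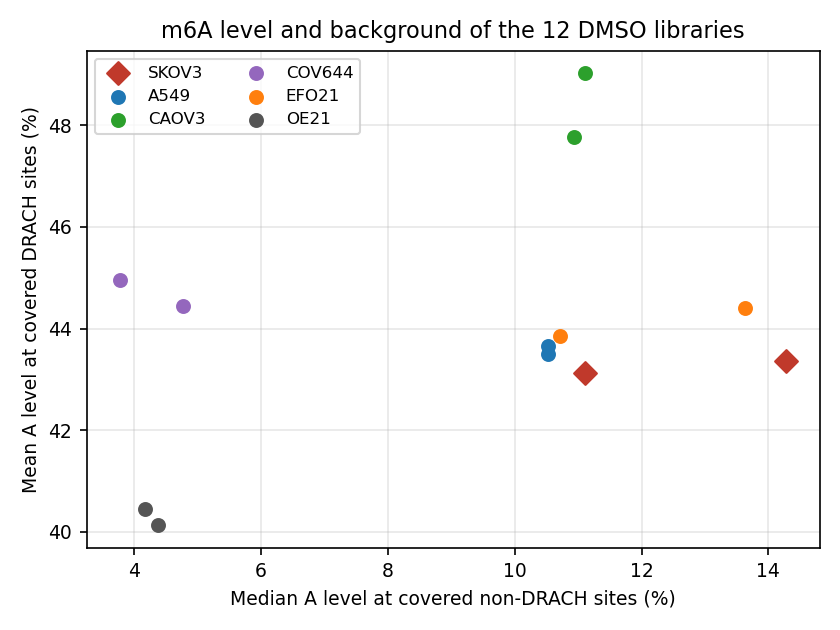
Each point is 1 DMSO library, with the median A level at covered non-DRACH sites on the x axis and the mean A level at covered DRACH sites on the y axis, both in percent. The SKOV3 libraries (diamonds) sit at 43.1% and 43.4% on the y axis, and at 11.1% and 14.3% on the x axis beside A549, CAOV3 and EFO21.

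Site by site, the levels of SKOV3 correlated across the 38621 DRACH sites with Pearson's r between 0.953 (CAOV3) and 0.965 (A549), while its own replicates gave r = 0.951. These are correlations across sites of the same libraries, and sites are not independent replicates. The median absolute difference between the SKOV3 replicates was 4.52 points. Between the means of SKOV3 and of another line it was 4.19 points for A549 and 4.44 for EFO21, and 5.08 for OE21, 5.22 for COV644 and 6.29 for CAOV3. The replicate values of r and of the difference compare single libraries, whereas the values between lines compare means of 2 libraries, which vary less. Set side by side, they do not show whether SKOV3 differs from a line by more than replicate error. The tests that follow compare each site with that error.

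Of the DRACH sites, 366 were higher in SKOV3 than in the mean of 5 lines (0.948% of sites tested) and 847 were lower (2.19%), in a logistic model of the A and G counts with adjusted p under 0.05. Against the 3 lines of similar background, 99 were higher (0.256%) and 736 lower (1.91%), and 74 (0.192%) and 539 (1.4%) were called in the same direction in both. Lower levels thus outnumbered higher ones under both references, and more so against the lines of similar background. Among these 3 lines the imbalance was by far the largest against CAOV3, as the counts by line below show. Of the sites called against 5 lines, 138 higher (0.357%) and 355 lower (0.919%) had both SKOV3 libraries outside the range of all 10 other libraries. limma, which estimates the spread of each site, called only 18 higher and 58 lower DRACH sites, and 14 and 41 of these were among the calls above. Line by line, SKOV3 had 170 DRACH sites higher and 270 lower than EFO21, 304 and 674 against A549, and 108 and 2899 against CAOV3. Against COV644 it had 1010 higher and 2145 lower, and against OE21 2007 higher and 478 lower. The balance thus ran towards lower against 4 lines and towards higher against OE21, the line with the lowest mean level.

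Outside DRACH, 1605 sites were higher in SKOV3 (5.31%) and 79 lower (0.261%). Against the 3 lines of similar background these were 68 and 61. The excess of higher non-DRACH sites was therefore not present against lines whose background is like that of SKOV3. The table keeps a site when at least 1 library reached a level of 25%. Among covered non-DRACH sites, 8795 (29.1%) reached this in SKOV3 alone, close to the 8304 of EFO21 alone and above the 5425 of CAOV3, 2233 of A549, 356 of COV644 and 234 of OE21. Of covered DRACH sites, 1528 (3.96%) did so in SKOV3 alone.

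The direction differed between motifs and exon types. GGACT, the motif with the highest mean level, averaged 55.1% ± 0.029 (SD, n = 2) in SKOV3 and was 1.50 points below the mean of 5 lines, with 48 of 6855 sites higher and 234 lower. GAACT was 2.01 points below, with 29 of 5079 sites higher and 174 lower. The weak motif TGACC was 2.33 points above, with 19 of 468 higher and 1 lower, but only 0.275 points above the lines of similar background. Of the 18 DRACH motifs 7 had a mean above that of 5 lines, among them AAACC (1.69 points, 12 sites higher and 0 lower) and AGACC (1.40 points, 16 higher and 3 lower). Against the lines of similar background both of these were lower, by -0.232 and -0.608 points, and TGACC alone was above. Sites in last exons were 1.20 points lower (203 higher and 634 lower of 26659), whereas sites in internal exons were 0.104 points higher (115 higher and 79 lower of 8277). Against the 3 similar lines internal exons were lower too, by 1.22 points with 13 sites higher and 71 lower. Transcripts with a single exon stood 2.84 points below the mean of 5 lines, with 8 of 1022 sites higher and 55 lower. Against the 3 similar lines they stood 3.18 points below, with 0 sites higher and 26 lower.

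By a fixed rule, 10 DRACH sites with higher and 10 with lower level were named, each called against both references, with at least 50 reads in every library, no overlap with the 10 other libraries and 1 site per gene. The rule was met by 21 higher sites in 19 genes and 198 lower sites in 173 genes. Only 7 of the 20 named sites also passed limma. Their 5-base motifs, with the adenosine that is read at the third base, are given as in the deposited table for 6 of these 7, as examples of site differences that passed both tests and both references, which 7 higher and 37 lower DRACH sites did. GGACT, the motif of 4 of them, accounts for 6855 of the 38621 covered DRACH sites. In GLORI a G in a line's own DNA is read like a converted adenosine, and the genotypes of the lines were not used here.

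CAV1 encodes caveolin-1, the coat protein of caveolae. Its site in last exon 3 (GRCh38 chr7:116559744, plus strand, motif AAACT) was at 3.93% and 3.22% in SKOV3, with the 10 other libraries at a lowest of 23.1%, a median of 32.9% and a highest of 39.0%. Both SKOV3 libraries were far below every other library. The difference was -27.8 points (log odds -2.49 ± 0.134 SE, adjusted p = 2.75e-73 in the logistic model and 9.0e-05 in limma). Among the 9 other covered DRACH sites of CAV1, 7 were also called lower and 0 higher, with a median difference of -7.00 points. CAV1 read coverage was higher in SKOV3 than in the mean of 5 lines, by 1.83 ± 0.112 (log2, SE) with edgeR's adjusted p = 2.14e-09, although the libraries overlapped (2216 and 2639 against 95.9 to 2510 CPM, that is counts per 1000000 reads of the library at gene sites).

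MARCHF7, an E3 ubiquitin ligase, had a site in internal exon 7 (chr2:159747940, plus strand, motif GGACT) at 13.2% and 19.2% in SKOV3 and at 61.4% to 89.1% elsewhere (median 68.4%). With -54.2 points it was the largest difference among the named sites, with adjusted p = 3.0e-22. None of the 5 other covered DRACH sites of MARCHF7 was called. In MRFAP1L1 the site in last exon 2 (chr4:6708629, minus strand, motif GGACT) was at 32.5% and 25.3% against 51.6% to 92.0% (median 65.7%), with -40.0 points and 0 of 11 other sites called. ABCB6, a porphyrin transporter, had a site in first exon 1 (chr2:219218211, minus strand, motif GGACT) at 46.9% and 43.4% against 64.1% to 78.0% (median 67.3%). That is -24.3 points, while the 2 other sites of ABCB6 were 9.22 and 9.45 points higher without being called. These 3 differences were each confined, among covered DRACH sites of their gene, to 1 called site.

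UBE2G2, a ubiquitin-conjugating enzyme that serves degradation at the endoplasmic reticulum, differed over more of its length. The site in last exon 6 (chr21:44769724, minus strand, motif GGACA) was at 29.5% and 36.7% against 41.0% to 71.7% (median 58.0%), and 4 of its 11 other DRACH sites were called lower. SNX1, a sorting nexin of the endosome, had its named site at 29.7% and 27.1% against 31.0% to 87.4%, with 2 of 15 others lower, and ZBTB8A, a zinc finger gene, at 32.7% and 25.4% against 35.4% to 60.1%, with 2 of 7 others lower. These 2 sites missed limma's threshold, at adjusted p = 0.052 and 0.086. RPS6KA1, the kinase RSK1, was at 71.0% and 73.2% at a site that was at 88.1% to 99.01% in the others, with 0 of 7 other sites called (limma's adjusted p = 0.111). TBCCD1 was at 52.3% and 59.7% against 65.7% to 91.4% (limma's adjusted p = 0.145).

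Among the higher sites the differences ran from 9.78 to 25.3 points. B4GALT1, a galactosyltransferase of the Golgi, had a site in internal exon 3 (chr9:33120542, minus strand, motif GGACT) at 47.1% and 49.5% in SKOV3. The 10 other libraries ran from 17.7% to 33.0% with a median of 20.97%, so the groups were well apart. The difference was 25.3 points (log odds 1.15 ± 0.147 SE, adjusted p = 7.44e-12 in the logistic model and 0.015 in limma). None of its 6 other DRACH sites was called, although all of them were higher, by 0.840 to 12.05 points. The 9 other named sites were 9.78 to 15.5 points higher, and limma's adjusted p for them ran from 0.109 to 0.238. Among them EXOC3, an exocyst subunit, was at 22.2% and 25.3% against 4.27% to 11.2%. RDH11, a retinol dehydrogenase, was at 64.9% and 66.7% against 41.2% to 61.7%, and SRCAP, a chromatin remodelling ATPase, at 68.2% and 72.4% against 48.5% to 66.05%. AHNAK, a very large scaffold protein, was the weakest, at 63.2% and 63.7% against 31.7% to 60.3% with adjusted p = 0.047. It lost its call when any of 7 single libraries was left out. PKN3, PIGG, TMEM167A and ATRAID were also among them. The sites of EXOC3 and ATRAID were at most at 11.2% and 24.7% in the other libraries. Among the DMSO libraries they reached the 25% that keeps a site in SKOV3 alone, so they were listed through their SKOV3 level.

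**Figure D2:**
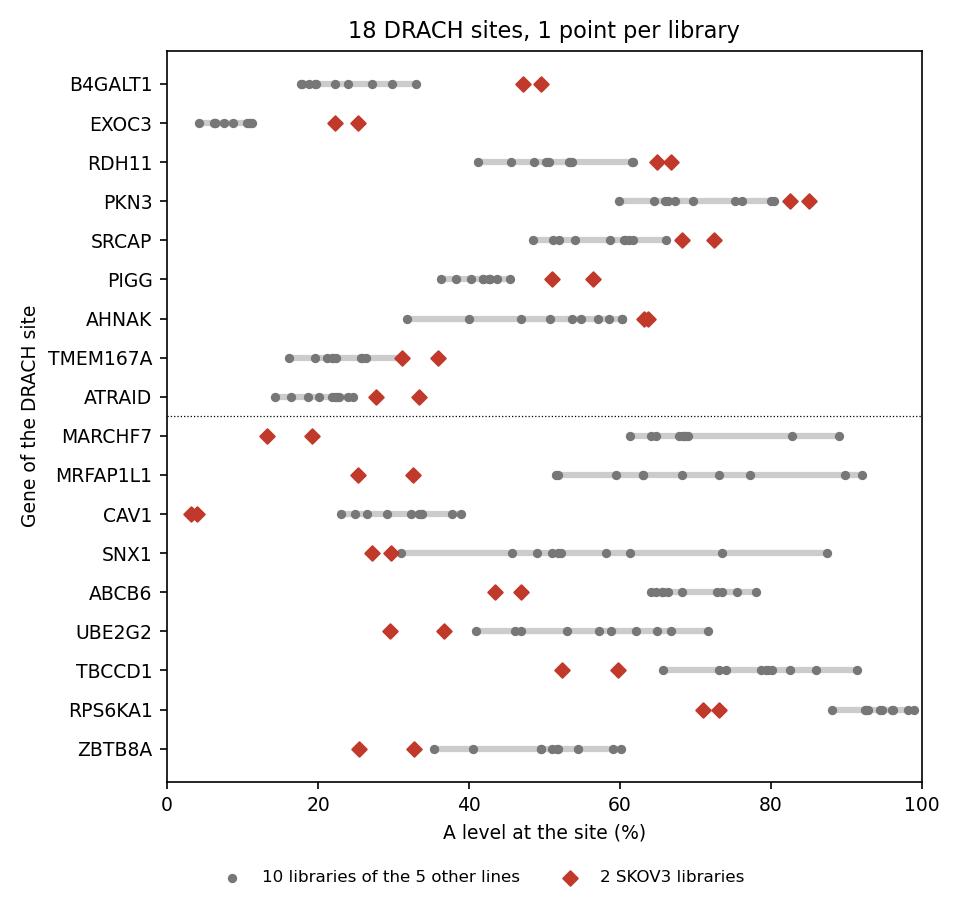
A level in percent at 18 of the named DRACH sites, 9 higher above the dotted line and 9 lower below it, with 1 grey point for each of the 10 libraries of the 5 other lines and red diamonds for the 2 SKOV3 libraries. The sites were chosen to have no overlap, and the gap is widest at MARCHF7, where SKOV3 lies at 13.2% and 19.2% and the others begin at 61.4%.

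Summed over the covered DRACH sites of a gene, m6A was higher in SKOV3 in 134 of 7385 genes (1.81%) and lower in 501 (6.78%), with a median difference over all genes of -1.03 points. Against the 3 lines of similar background 50 genes (0.677%) were higher and 833 (11.3%) lower. Among the calls against 5 lines, 30 higher (0.406%) and 172 lower (2.33%) did not overlap with the 10 other libraries. limma on the mean level over sites called 47 and 205.

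By the naming rule 6 genes stood out in each direction. TK1, thymidine kinase of the S phase, was at 54.0% and 55.0% over 6 sites in SKOV3 and at 20.8% to 51.6% (median 34.9%) in the others. A549 and EFO21 came near, with means of 50.6% and 50.4%. The TK1 difference rested on 2 of its sites. The site at chr17:78174629 was at 77.2% ± 1.07 (SD, n = 2) in SKOV3 against 28.1% to 77.5% in the other libraries (mean of lines 54.4%), with overlap. The site at chr17:78174466 was at 33.6% ± 1.46 (SD, n = 2) against 9.95% to 30.1% (mean of lines 19.8%). Both passed the site test, at adjusted p = 6.66e-16 and 0.00107. FANCE, of the Fanconi anaemia core complex, was at 14.6% and 33.6% over 3 sites against 4.77% to 10.2%, so that the SKOV3 replicates themselves were further apart than any of the other libraries. Its 2 called sites were at most at 10.2% and 10.7% in the other libraries. Among the DMSO libraries they reached the 25% that keeps a site in SKOV3 alone, so they were listed through their SKOV3 level. THOC5, of the mRNA export complex THO, was at 47.1% and 53.1% against 26.1% to 46.1%, and SUN2, of the nuclear envelope, at 18.7% and 24.3% against 5.51% to 15.7%. HARS1, a histidyl-tRNA synthetase, was at 48.2% and 49.5% against 34.9% to 47.1%. Neither SUN2 nor HARS1 had a site that was called by itself. TK1, FANCE and THOC5 also passed limma, which used the same listed sites.

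INCENP, a scaffold of the chromosomal passenger complex, had the largest gene difference, at 73.5% and 74.2% against 41.7% to 66.2%, but it did not come from its sites. None of its 8 DRACH sites was called, and with equal weight per site SKOV3 averaged 56.5% and the other lines 56.5%. What differed was where the reads lay. The 2 sites in internal exon 4, which were at 94.0% and 96.4% in SKOV3 and at 97.8% and 93.4% in the mean of the other lines, took 53.7% and 54.9% of the gene's DRACH reads in SKOV3 and 17.8% to 28.5% (median 23.1%) in the others. The remaining 6 sites lie in last exon 19. The gene value of INCENP is thus a difference in read distribution along the transcript, and its limma estimate on equally weighted sites was -0.000197 on the log odds scale. For the other 11 named genes the share of reads that lay on different sites was 5.47% to 12.6%, against 31.6% for INCENP.

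The 6 named genes with lower m6A were CUEDC1, CEP170B, ZBTB8A, TMEM64, TMUB2 and TJAP1. CUEDC1 was at 58.0% and 59.0% over 4 sites against 67.4% to 82.3% (median 71.99%), a difference of -15.1 points with adjusted p = 1.24e-21. Its leading site (chr17:57862845) was at 60.7% ± 0.404 (SD, n = 2) against a mean of 77.2%. ZBTB8A was at 45.9% and 45.4% over 8 sites against 54.4% to 65.5%, with 3 of the 8 sites called lower. TMUB2 was at 49.4% and 48.0% against 56.8% to 70.5%, TMEM64 at 31.1% and 31.4% against 35.5% to 54.8%, CEP170B at 49.6% and 48.0% against 50.4% to 75.7%, and TJAP1 at 25.5% and 22.1% against 31.3% to 44.4%. In all 6 genes both SKOV3 libraries were below every other library, as the naming rule requires. CUEDC1 and TMEM64 missed limma's threshold (adjusted p = 0.055 and 0.110).

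The gene lists are read against the 1.81% of all genes with higher and the 6.78% with lower m6A (0.677% and 11.3% against the lines of similar background). Of 20 genes of the m6A machinery with covered DRACH sites 0 were called, and 2 were lower against the lines of similar background. METTL3 itself was at 42.6% ± 6.9 (SD, n = 2) against 28.4% to 51.0%, with METTL14 at 53.4% ± 2.7 (SD, n = 2) against 52.0% to 63.2%. Of 21 interferon and double-stranded RNA genes, STAT2, a transducer of interferon signals, was called higher and 1 gene lower, and 0 against the lines of similar background. STAT2 was at 36.0% ± 1.82 (SD, n = 2) over 9 sites against 19.4% to 36.7%, which overlapped. Among 42 cell cycle genes 1 was higher and 1 lower (0 and 2 against the lines of similar background), the lower being CDK4, the kinase of the G1 phase, at 56.9% ± 1.43 (SD, n = 2) against 62.0% to 72.8%. Of 17 glycolysis and hypoxia genes 3 were higher and 4 lower, and 1 and 6 against the lines of similar background. NDRG1 was at 70.6% ± 7.71 (SD, n = 2) against 41.6% to 74.2%, and VEGFA, the angiogenic factor, at 57.3% ± 4.07 (SD, n = 2) against 56.3% to 72.6%. AKT2 of the ERBB pathway was lower, at 30.7% ± 0.274 (SD, n = 2) against 31.5% to 41.4%, and so was SS18 of the SWI/SNF complex, at 43.6% ± 0.671 (SD, n = 2) against 44.2% to 59.4%. In VIM the difference was 2.71 points against 5 lines and -2.85 points against the lines of similar background, so its sign turned, and it was called against neither. TXN was 10.9 points higher against 5 lines and 5.11 points against the lines of similar background, without a call against the latter.

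Read coverage, the A and G reads summed over the sites of a gene, differed far more than m6A. Over covered sites 2855 of 8383 genes were higher in SKOV3 (34.1%) and 2650 lower (31.6%) by edgeR with adjusted p under 0.05. Both SKOV3 libraries lay outside the range of all 10 others in 813 higher genes (9.7%) and 781 lower genes (9.32%). Requiring 20 reads in every library leaves out genes that are near absent in any line, so coverage was also summed over all listed sites, where 5206 of 13674 genes were higher (38.1%) and 4453 lower (32.6%), 1507 (11%) and 1240 (9.07%) of them without overlap. The test rests on the small spread between replicates, so a call alone says little, and the levels are given beside it. The log2 difference is taken from the mean of the log2 levels of 5 lines, so a line with very few reads counts as much as any other, and a gene can be called higher although SKOV3 lies below the plain mean. Coverage is in CPM, and since it grows with the number of sites, levels are compared between lines and not between genes. Fewer cells with a transcript and less RNA per cell cannot be told apart in these bulk samples.

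ERBB2, the receptor tyrosine kinase HER2, had the largest coverage difference of the covered genes. Over its 8 covered sites it reached 2468 and 2079 CPM in SKOV3, with the 10 other libraries at a lowest of 30.3, a median of 45.8 and a highest of 83.4. The lower SKOV3 library was thus far above the highest of the others, and the difference was 5.57 ± 0.077 (log2, SE, edgeR's adjusted p = 2.31e-13). Over all its listed sites ERBB2 took 0.468% and 0.389% of all gene reads in SKOV3 and at most 0.0142% elsewhere. This depth makes ERBB2 one of the best measured transcripts of SKOV3, with up to 5552 reads at 1 site.

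The m6A level of ERBB2 did not differ detectably. Over 5 covered DRACH sites it was 54.5% ± 2.61 (SD, n = 2) in SKOV3 and 47.9% to 61.9% in the others (adjusted p = 0.888). The 2 sites nearest to complete methylation, AGACT in last exon 27 at chr17:39728291 and chr17:39728431, were at 92.2% ± 0.622 and 98.2% ± 0.121 (SD, n = 2) in SKOV3. Both were called higher against 5 lines, by 5.12 and 4.13 points, both overlapped with the other libraries (76.9% to 94.4% and 84.2% to 98.8%), and neither was called against the lines of similar background. The 3 other DRACH sites were between 8.66% and 30.3% in SKOV3 and were not called.

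The genes beside ERBB2 on chromosome 17 were higher as well. Of 18 neighbours tested, ERBB2 included, 17 were higher and 0 lower (against 38.1% and 32.6% of all genes), with a median of 0.887 on the log2 scale against 0.021 over all genes. The list was drawn up around ERBB2 with its coverage already known. The differences were largest in a run of 6 genes, neighbours among those tested, that ends at ERBB2. PPP1R1B, a regulator of protein phosphatase 1, was at 109 and 85.4 CPM against 0 to 0.455. STARD3, a cholesterol transporter of late endosomes, differed by 3.41 ± 0.105, TCAP by 4.74 ± 0.252 and PGAP3 by 3.57 ± 0.076 (log2, SE). PNMT was at 3.19 and 2.50 CPM against 0 to 0.384, and no difference is given for it because A549 and OE21 had no reads. The next gene on the other side, MIEN1, differed by 0.56 ± 0.098, and GRB7, an adaptor that binds ERBB2, by 0.90 ± 0.116 with overlap. Differences near this size were common from LASP1 (1.18) to MSL1 (0.64), with RPL19 (-0.35) and MED24 (0.18) not called. Further out PIP4K2B (0.77), CWC25 (0.75) and TOP2A (0.53) were also higher, whereas PCGF2, RPL23 and CDC6 were lower. LASP1 and MSL1 thus do not mark the ends of a run. Gene copy number was not measured here. Of 13 neighbours with covered DRACH sites 0 had higher m6A and 1, MSL1, lower, near the 1.81% and 6.78% of all genes. Against the lines of similar background 0 were higher and 2, MSL1 and MED24, lower (0.677% and 11.3% of all genes).

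**Figure D3:**
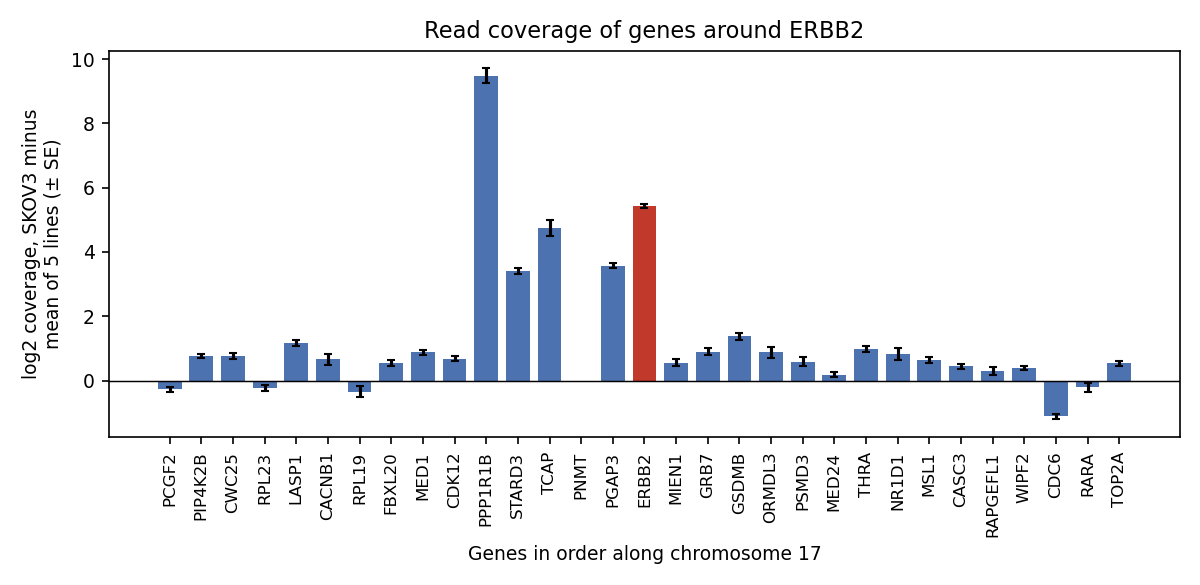
Bars give the log2 difference in read coverage over all listed sites between SKOV3 and the mean of 5 lines, with the SE from edgeR, for ERBB2 (red) and 15 genes on each side in their order along chromosome 17. PNMT has no bar, because A549 and OE21 had no reads of it. The other 5 genes from PPP1R1B to ERBB2 differ by 3.41 to 9.48, and MIEN1, next to ERBB2, by 0.56.

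Within the ERBB pathway 12 of 26 genes were higher and 10 lower, near the shares over all genes (38.1% and 32.6%). The receptor ERBB3 was at 1.96 and 1.74 CPM against 3.54 to 78.7 (log2 -3.66 ± 0.167, adjusted p = 8.6e-11), with no overlap, and the ligand AREG at 0.046 and 0.058 against 0.118 to 23.5. AREG in SKOV3 is thus near the level of single reads. EGFR was lower, with a log2 difference of -0.98, but it was 0.23 higher against the lines of similar background. The ligand NRG1 was higher (2.37) but overlapped. The receptor ERBB4 was at 1.28 and 1.80 CPM, between EFO21 (22.7 and 27.2) and the other 4 lines (0 to 0.434), and no difference is given for it because A549 and OE21 had no reads.

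Most epithelial genes were lower and most mesenchymal genes higher. Of 32 epithelial genes 2 were higher and 24 lower, with a median of -2.09, against 38.1% and 32.6% of all genes and their median of 0.021, and of 40 mesenchymal and matrix genes 31 were higher and 7 lower, with a median of 1.51. CDH1, the adhesion molecule E-cadherin, was at 2.67 and 2.97 CPM over its covered site against 3.27 to 337 (median 53.2). Its log2 difference was -3.97 ± 0.154 (edgeR's adjusted p = 1.47e-09), and the lowest of the other libraries was close to SKOV3. ESRP1, a splicing factor of epithelial cells, was at 0.091 and 0.407 over all listed sites against 0.183 to 238, and GRHL2, an epithelial transcription factor, at 0.091 and 0.116 against 0.041 to 278. For both, 1 or more of the other libraries was as low as SKOV3. CLDN1 and DSP were the 2 called higher, with overlap. CLDN1 was at 17.7 and 22.2 CPM, above CAOV3 and OE21 (0.054 to 0.845) and below A549, COV644 and EFO21 (34.3 to 1132), so that SKOV3 lay under the median library (34.5). No member of the epithelial list was without overlap in the higher direction, and 5 were in the lower.

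VIM, the intermediate filament vimentin, was at 660 and 945 CPM over its covered site against 4.90 to 357 (median 25.9), 4.38 ± 0.233 higher (log2, SE, adjusted p = 1.68e-08). ZEB2, a repressor of E-cadherin, was at 4.97 and 7.04 over all listed sites against 0 to 3.43, and COL1A2, a collagen I chain, at 6.89 and 9.54 against 0 to 1.02. Both groups of libraries were apart in each case. FN1 (4.90), LOXL2 (3.58), ZEB1 (3.29), COL5A1 (3.28) and FSTL1 (3.07) were also higher without overlap, as given on the log2 scale. MMP14, a membrane-bound matrix protease, went the other way, at 0.775 and 0.872 against 3.39 to 202 (log2 -6.10 ± 0.194), and COL6A1 was lower with overlap (-2.79 ± 0.149). Markers of fibroblasts moved with these genes: 5 of 6 tested fibroblast markers were called higher and 0 lower, among them PDGFRB, which at 0.684 and 1.63 CPM was below EFO21 (7.76 and 6.84). The summed fibroblast level was 118 and 123 in SKOV3 and 13.7 to 380 in the others, highest in COV644, and COL3A1, DCN, PDGFRA and FAP were not listed. Leukocyte markers were low, at 28.4 and 37.9 summed over 3 genes against 16.1 to 126, with ITGAM at 0 in SKOV3. The part of other cell types was not tested.

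Ovarian and Mullerian lineage genes were called higher in 9 of 22 and lower in 9, near the shares over all genes (38.1% and 32.6%). PAX8, a transcription factor of the Mullerian epithelium, was at 240 and 228 CPM over its covered site against 1.55 to 152 (log2 3.65 ± 0.095, adjusted p = 6.72e-11). ESR1, the oestrogen receptor, was at 19.8 and 19.0 over all listed sites against 0 to 0.697, and MECOM, a zinc finger transcription factor, at 405 and 434 against 0.322 to 284. LHX1 (5.07) and MEIS1 (1.90) were also higher without overlap. KLK7 was at 0.046 and 0 against 0 to 93.0, and WFDC2 and MSLN, both secreted or surface antigens of ovarian cancer, were lower (-1.58 and -1.63). As a check of the label, 4 of 9 tested ovarian markers were higher and 3 lower, with PAX8 well above background and MUC16 not listed. Of 14 squamous markers 3 were higher and 7 lower, and of 3 lung markers 0 were higher and 2 lower. The squamous markers summed to 84.0 and 85.9 in SKOV3 and to 11189 in an OE21 library, and the lung marker NKX2-1 was at 0 in SKOV3.

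Among 48 cell cycle genes 15 were higher and 25 lower (median -0.44), against 38.1% and 32.6% of all genes. RB1, the retinoblastoma protein that restrains E2F, was at 128 and 127 CPM against 0.054 to 61.8. It had the largest log2 difference of the list towards higher coverage (3.33 ± 0.1, edgeR's adjusted p = 1.56e-12). This value is raised by CAOV3, which was at 0.054 CPM in both libraries, while the remaining lines were at 31.9 to 61.8. SKOV3 was 2.78-fold the median of the other libraries. CDKN1C (2.94) and CDC25B (1.74) were also higher without overlap. CDKN1A, the cyclin-dependent kinase inhibitor p21, was at 8.57 and 10.9 CPM against 40.5 to 228 (median 126), without overlap (log2 -3.57 ± 0.123, adjusted p = 5.3e-12). MCM7 (-2.65), MCM2 (-1.17), MCM4 (-1.08) and MCM5 (-0.66), of the replicative helicase, the licensing factors CDT1 (-1.12) and CDC6 (-1.12), and the cyclins CCND1 (-1.79) and CCND3 (-1.46) were lower without overlap. CDKN2A had 4 reads in both SKOV3 libraries together and 0 in A549, and CDKN2B 0 and 1 read, with other libraries up to 62.2 and 116 CPM. A difference cannot be fitted for CDKN2A when a line has no reads, and its levels are given without a test. Of 8 genes at 9p21, where both lie, 3 were higher and 4 lower. MTAP, their neighbour, was at 81.1 and 81.3 against 10.0 to 301. It was lower than the mean of 5 lines (-0.32) and higher than the 3 lines of similar background (0.60).

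Of 48 interferon and double-stranded RNA genes 13 were higher and 25 lower (median -0.25), against 38.1% and 32.6% of all genes. OASL was at 1.51 and 0.989 CPM against 2.11 to 331, and ISG20 (-4.18), OAS1 (-3.28) and IRF9 (-1.58) were lower without overlap. In the other direction HERC5, which attaches ISG15 to proteins, was at 92.4 and 107 against 10.2 to 44.7, and HERC6, IFI35, MAVS and TRIM21 were higher without overlap. EIF2AK2 (-0.13), the kinase PKR, and IFIT1 (-0.09, but 0.72 against the lines of similar background) were not called. Of 19 antigen presentation genes 10 were higher and 5 lower (median 0.41), against 38.1% and 32.6% of all genes. ERAP2, a peptide-trimming enzyme, was at 269 and 330 against 5.86 to 246, and NLRC5 (2.18) and PSMB8 (1.18) were also without overlap. The class I genes HLA-B (1.58), HLA-C (1.47) and HLA-F (2.41) were higher with overlap, and since these genes are near-identical their reads may be split uncertainly.

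Of 26 genes of the m6A machinery 11 were higher and 10 lower, near the shares over all genes (38.1% and 32.6%), with a median of -0.04. The catalytic subunit was among those without a call. METTL3 was at 28.9 and 25.5 CPM against 9.12 to 52.0 (log2 -0.02 ± 0.127, adjusted p = 0.898) and MAT2A, which makes the methyl donor, at 191 and 141 against 88.1 to 322 (adjusted p = 0.673). METTL14 was 0.77 ± 0.111 higher with overlap. FTO, an eraser, was at 87.0 and 93.6 against 14.8 to 91.8, and ZCCHC4, which methylates ribosomal RNA, at 29.4 and 30.4 against 9.95 to 22.2. YTHDC1 and ZC3H13 were higher (0.64 and 0.76) and RBM15 lower (-0.44) without overlap. IGF2BP1, an RNA-binding reader, was at 0.182 and 0.058 against 0 to 67.5 (log2 -4.29 ± 0.68), and its paralogue IGF2BP3 at a mean of 27.1 against 3.06 to 234 (log2 -1.13 ± 0.092), both with overlap.

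The remaining lists are read against the 38.1% of all genes called higher and the 32.6% called lower. SMARCC1, a core subunit of SWI/SNF, was at 20.8 and 22.7 CPM against 107 to 245 (log2 -3.06 ± 0.106, adjusted p = 5.72e-12), while 11 of the 24 SWI/SNF genes were higher and 6 lower. Of 34 NRF2 targets 13 were higher and 13 lower, with GPX2 lower (log2 -7.08) and FTH1, the ferritin heavy chain, higher (log2 1.65), both without overlap. Of 32 glycolysis and hypoxia genes 9 were higher and 13 lower. HIF1A (2.05), LDHA (1.57) and VEGFA (0.88) were higher and EGLN3 (-2.75), PFKM (-2.46) and PGK1 (-0.92) lower without overlap. Among 43 ribosomal protein genes 1 was higher and 15 lower (median -0.27). These have many near-identical pseudogenes, and how reads were shared among copies is not given in the sources used here.

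**Figure D4:**
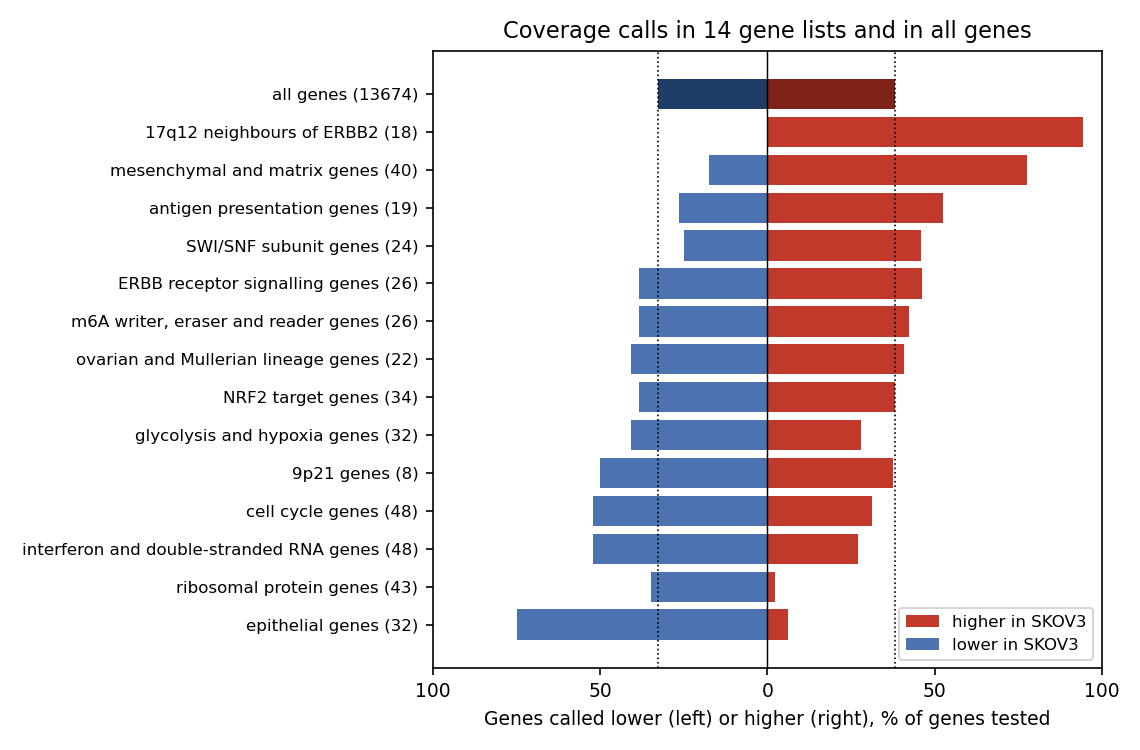
Share of tested genes called higher (right, red) or lower (left, blue) in read coverage over all listed sites, for 14 gene lists with the number tested in brackets and for all 13674 genes at the top, whose shares are the dotted lines (38.1% and 32.6%). Mesenchymal genes and the 17q12 neighbours reach furthest right, and epithelial genes furthest left.

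By the naming rule, 10 covered genes were named in each direction. Beside ERBB2, VIM, PAX8 and the ERBB2 neighbours PGAP3 and STARD3, the higher ones were COL12A1, DAPK1, PER3, FBLN2 and CYP1B1. CYP1B1, a cytochrome P450 that oxidises steroids and polycyclic hydrocarbons, was at 801 and 784 CPM against 35.1 to 124 (median 91.0), 3.44 ± 0.072 higher (log2, SE). COL12A1, a fibril-associated collagen, was at 198 and 221 against 1.68 to 56.6, and FBLN2, a matrix protein, at 149 and 168 against 1.70 to 43.4. DAPK1, a death-associated kinase, was at 275 and 361 against 2.33 to 165, and PER3, of the circadian clock, at 50.7 and 72.1 against 2.71 to 19.1. In each, the lower SKOV3 library was above the highest of the others, as the naming rule requires.

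UCHL1, a deubiquitinase, led the lower genes. It was at 21.7 and 20.5 CPM against 50.3 to 1481 (median 1106), with a log2 difference of -4.81 ± 0.135 (edgeR's adjusted p = 1.24e-10). Enzymes of metabolism were among the lower genes. SCD, the stearoyl-CoA desaturase, was at 75.4 and 72.7 against 202 to 3223, and EBP, a sterol isomerase of cholesterol synthesis, was at 11.8 and 10.1 against 52.9 to 200. PHGDH, the first enzyme of serine synthesis, was at 5.08 and 4.99 against 45.1 to 249, and the imprinted gene MEST at 5.86 and 7.64 against 91.8 to 209. EFEMP1, a fibulin, the elongation factor EEF1A2 and RAB34 were lower by 3.73 to 4.46 on the log2 scale. CDH1, given above, was also among them.

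Genes seen only over all listed sites had more extreme ratios, resting on few reads in 1 of the groups. PPP1R1B is given above. IGFN1 was at 352 and 259 CPM against 0.118 to 1.98, COX7B2 at 69.8 and 53.9 against 0.058 to 0.310 and CTXND2 at 13.2 and 15.5 against 0 to 0.310. PYCARD, the inflammasome adaptor ASC, had 0 reads in SKOV3 and 0.059 to 44.1 CPM elsewhere, which is at least 324-fold lower than the mean of 5 lines when 3 counts over both libraries are taken as the floor. HOXC13 had 0 reads against 0.711 to 29.2 CPM (at least 173-fold lower than that mean). CKMT1B and CKMT1A also had 0 reads, against 0.692 to 166 and 1.38 to 146 CPM (at least 598-fold and 480-fold lower). They are near-identical copies whose reads may be split uncertainly. For PYCARD and each of these genes the lowest other library was from EFO21, which for PYCARD (0.059 and 0.077 CPM) was near SKOV3. The folds thus rest on the lines with high levels. UPK1B, a uroplakin, had 2 reads in both SKOV3 libraries together and 3.77 to 1436 CPM elsewhere, a mean 6267-fold above SKOV3 with a 95% exact counting interval of 1735 to 51748. These intervals and floors cover counting error only.

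Along the genome, chromosome 7 stood apart. Of its 402 covered genes 17 were higher and 330 lower in SKOV3, against 34.1% and 31.6% of all covered genes, with a median log2 difference of -0.96. Relative to the mean of 6 lines, the median coverage of its genes was -0.83 and -0.79 in the SKOV3 libraries, below all 10 others, while COV644 had 0.67 and the remaining 4 lines between -0.09 and 0.16. The lower coverage ran along the whole chromosome: in 10 consecutive blocks of 40 to 42 genes the median was between -0.53 and -1.63, and in each block 23 to 39 genes were lower and at most 4 higher. The lowest block ran from PVRIG to KMT2E, with 39 of 40 genes lower and 0 higher. Over all listed sites 467 of 642 genes of chromosome 7 were lower and 86 higher. MCM7 lies on chromosome 7, as does CAV1, which was higher. In the other direction chromosomes 4, 6 and 18 had SKOV3 medians above all 10 other libraries, by 0.50, 0.35 and 0.54 against the mean of 5 lines, with 167 of 262, 230 of 428 and 74 of 114 covered genes higher. Chromosome 13, which holds RB1, was 0.40 above that mean with overlap.

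**Figure D5:**
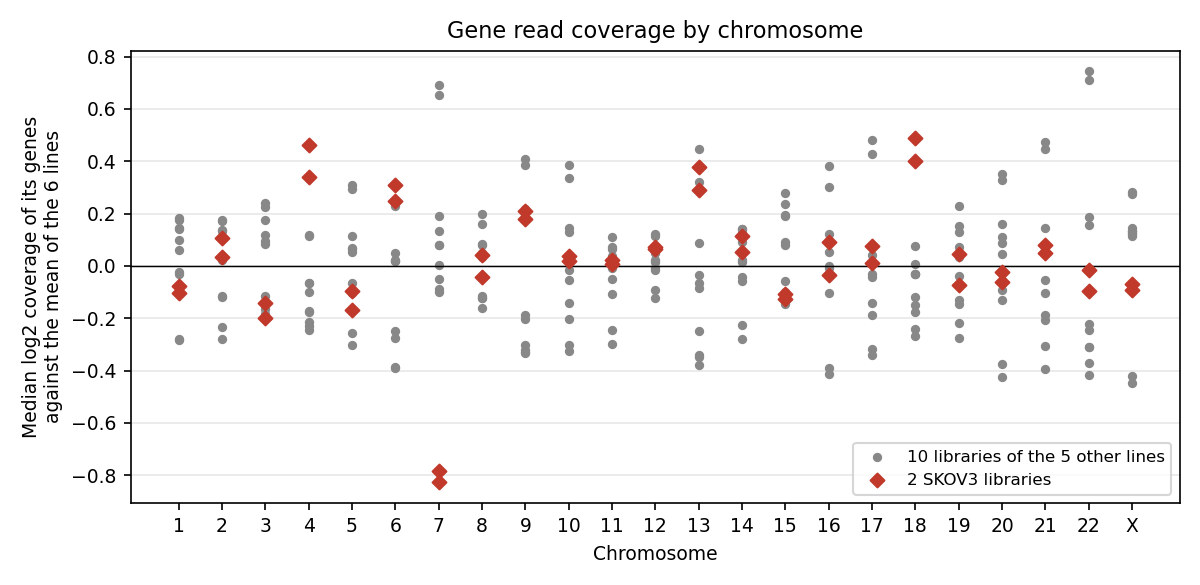
Median log2 coverage of the covered genes of each chromosome relative to the mean of 6 lines, with 1 grey point for each of the 10 libraries of the 5 other lines and red diamonds for the 2 SKOV3 libraries. SKOV3 lies below all others on chromosome 7, at -0.83 and -0.79, and above all others on chromosomes 4, 6 and 18.

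In windows of 10 neighbouring genes, chosen as the 4 highest and 4 lowest of 13457 and so described without a test, the highest medians were on chromosome 19. The window from ZNF708 to ZNF730 had a median of 4.78 with 10 of 10 genes higher, that from ZSCAN5A to SMIM17 4.52 with 9 higher, and that from ZNF14 to ZNF66 3.88 with 10 higher. Each of these 3 holds a gene without reads in a line (ZNF730, SMIM17 and ZNF66), whose fitted value enters the median. For all windows the median lay between -1.83 and 2.42 from the 1% to the 99% quantile. These are clusters of KRAB zinc finger genes, which repress transposable elements and resemble each other in sequence, so reads may be split uncertainly among them. ZNF43 was at 47.9 and 55.1 CPM against 0.171 to 49.6, with overlap, and ZNF93 at 8.21 and 12.04 against 0 to 19.0, so other lines reached the same level. The fourth window, from FGB to GASK1B on chromosome 4, had 7 genes higher and 1 lower.

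The lowest window lay in the HOXC cluster of chromosome 12, from ATP5MC2 to HOXC4, with a median of -4.76 and 8 of 10 genes lower. It holds HOXC13, which had no reads in SKOV3 and whose fitted value enters the median. HOXC10, a homeodomain factor of posterior identity, had 6 reads in both SKOV3 libraries together and 2.61 to 66.4 CPM elsewhere, and HOXC6 was at 0.456 and 0.756 against 14.4 to 102. In both, every other library was above SKOV3. The kallikrein window from SYT3 to KLK11 on chromosome 19 had a median of -4.45 with 5 genes lower and 2 higher, KLK10 being at 1.37 and 1.45 against 0.124 to 429. KLK6 in this window had no reads in SKOV3 or A549, and its fitted value likewise enters the median. The window from PTP4A3 to LYNX1 on chromosome 8 had a median of -3.64 with 7 genes lower and 0 higher. In the window of cornified envelope genes from LCE3E to S100A9 on chromosome 1 the median was -3.46, but 0 of 10 genes were called.

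Across genes, differences in m6A and in coverage were only weakly correlated. Over 7385 genes with a covered DRACH site Pearson's r was -0.079 and Spearman's rho -0.063, from the same libraries and without a test, since genes are not independent. Of the 501 genes with lower m6A, 242 had higher and 103 lower coverage, and of the 134 with higher m6A, 51 had higher and 47 lower coverage. Among the 6750 genes without an m6A call, 2324 had higher and 2181 lower coverage. The genes with lower m6A thus leaned to higher coverage. Whether their read depth made a call easier was not tested. Genes with lower m6A had a median coverage difference of 0.214 on the log2 scale, against 0.028 for genes without an m6A call.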

How the data were processed

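GLORI libraries of polyadenylated RNA from 6 cell lines with DMSO were analysed. Per the labels, 2 libraries per line were made. The submitters' processing notes name cutadapt, STAR and the build GRCh38. Their versions, the site caller and the use of strand were not given in the sources used here. Per site and library, the authors deposited the count of A or G reads and the fraction that is A, keeping sites that reached a count of 20 and a fraction of 0.25 somewhere. The fraction times the count was whole within 5.5e-12, so A and G counts were recovered. Columns beginning with D were read as DMSO. Gene, exon and motif are those of the table.

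Sites with 20 reads in all 12 libraries were tested with a logistic model with line as factor (0.5 added to A and G, quasi-binomial dispersion per line, Wald test of SKOV3 against the equal-weight mean of 5 lines), and Benjamini-Hochberg adjustment with a threshold of 0.05. Dispersion was highest in SKOV3 (2.41). Gene values are sums over sites, leaving out those under more than 1 gene, and coverage counts were tested with the quasi-likelihood test of edgeR 4.0.16 (TMM) in R 4.3.3. This contrast cannot be estimated where a line has no reads: 1013 genes lack reads in at least 1 line (400 in SKOV3), and 340 of them were still called, so their folds are not printed as fitted. The background of a library is its median non-DRACH level. limma 3.58.1, DESeq2 1.42.0, Python 3.11.15, numpy 2.4.6, pandas 2.3.3, scipy 1.17.1 and matplotlib 3.10.9 were also used. Each test was tested on simulated data first.

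The named sites and genes follow one rule: called against 5 lines (sites and gene m6A also against the 3 similar lines), no overlap with the 10 other libraries, 50 reads per site or 3 DRACH sites per gene, and the largest differences, namely 10 sites, 6 genes by m6A and 10 genes by coverage each way, with 5 more each way over all listed sites, the 2 members at either end of each list, and ERBB2, CDKN2A, MTAP, METTL3, METTL14, MAT2A and PAX8. Further list members without overlap were named after their values were seen. The comparison, the 15 gene lists and the 5 marker lists were chosen with earlier results of these data known. Some sites and genes that the rule names, and 1 of the lists, are not reported here.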

Additional observations from a re-analysis of the deposited data

How the results depend on the processing

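Of the results recomputed under the alternatives, 2 changed direction: the m6A of INCENP was -0.000197 log odds in limma with equally weighted sites, and MTAP coverage was 0.595 (log2) against A549, CAOV3 and EFO21. Against these 3 lines the sign also turned for EGFR and IFIT1 coverage, VIM m6A and the mean of internal exons, as given above. In the order DRACH sites higher and lower, non-DRACH sites higher and lower, and genes with m6A higher and lower, the counts that moved were as follows. Against A549, CAOV3 and EFO21 there were 99 DRACH sites higher, 68 non-DRACH sites higher and 50 and 833 genes. With background removed there were 91 DRACH sites higher, 363 non-DRACH sites higher, and 34 and 1055 genes. With 1 common dispersion there were 821 and 1602 DRACH sites and 3552 and 164 non-DRACH sites. limma gave 18 and 58, 8 and 16, and 47 and 205. With 50 reads per site 456 non-DRACH sites were higher, and at sites that passed in another line 288. Over all covered sites of a gene, 506 genes were higher and 301 lower in m6A. With 500 reads per gene in the mean library 1749 genes were higher in coverage, and over all listed sites 5206 were higher and 4453 lower.

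Leaving out 1 library gave mean differences of -1.1 to -0.85 points, 227 to 1352 DRACH sites higher and 600 to 1626 lower, 679 to 6803 non-DRACH sites higher and 59 to 145 lower, and 59 to 138 genes with higher and 254 to 533 with lower m6A. The highest site counts came without SKOV3 replicate 1, which leaves the SKOV3 library with the highest background (14.3%). A lone SKOV3 library has no replicate spread of its own and is assumed to vary like the other lines. The same assumption held when the other SKOV3 library was left out, and the site counts then stayed near those with all libraries. What raised the counts without SKOV3 replicate 1 was not tested. Coverage counts were 2336 to 2851 higher and 2187 to 2729 lower, and over all listed sites 4733 to 5246 and 3919 to 4442. All 20 genes named by coverage kept their call in every setting in which they were tested. Of the 20 named sites 13 lost it in limma and 7 with background removed. At sites that passed in another line only 17 of the 20 could be tested, and these kept their call. An alternative without a filter on low counts, chosen after seeing the data, gave 5212 and 4448 genes over all listed sites.

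Replicate numbers did not pair libraries: the deviations of SKOV3 replicates correlated with those of the other lines at r = -0.023 to 0.0025. With a replicate block 383 and 851 DRACH sites, 1653 and 77 non-DRACH sites, 139 and 505 genes by m6A and 2776 and 2584 genes by coverage were called. The mean of a 5-line reference rests on 5 lines, and a site with 20 reads has a coarse level, so depth limits which single-site differences can be called.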
